A study of Rattus norvegicus with 2 samples.

Results

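Of 10 genes of endothelial identity and angiogenic signalling, 9 were measured in esophageal tissue of rats given the histone deacetylase inhibitor OSU-HDAC42 or vehicle, and 6 of the 9 were lower and 3 higher in the OSU-HDAC42 sample, where 52.6% of all 9302 genes compared in the same way were lower. The genes are Vwf, Mmrn2, Egfl7, Pecam1, Cdh5, Kdr, Flt1, Tek, Tie1 and Eng. They were read from all probe sets that the platform annotation ties to exactly 1 gene with one of these symbols, which gave 13 probe sets of 9 genes, out of 20826 such probe sets of 14217 genes. No probe set was listed for Cdh5, which encodes VE-cadherin, so that gene has no value here.

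Male Sprague-Dawley rats, an outbred laboratory strain, were 5 to 6 weeks of age when obtained. They received 7 gavage doses of 50 mg/kg OSU-HDAC42, 350 mg/kg in total, or vehicle on the same schedule, and the esophagus was harvested 24 hours after dosing ended, which was day 15. Each group has 1 Affymetrix Rat Genome 230 2.0 array, and the labels do not say whether the RNA on it came from 1 rat or from several, nor which layers of the esophagus were taken. With 1 array in each group there is no replicate check, so no difference below carries a p-value or an error between rats. The only spread that could be estimated is that between probe sets of the same gene. Its SD was 0.29 on the log2 scale over 4659 probe sets of 2027 genes. This spread covers differences between probe sets and not between rats. It pools strongly and weakly read genes above the expression floor defined below.

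Endothelial cells line blood and lymph vessels and hold themselves together through junction proteins such as Pecam1 and VE-cadherin. Vessel growth is driven mainly by vascular endothelial growth factors acting through the receptor tyrosine kinase Kdr, with Flt1 acting largely as a trap for the same ligands. The angiopoietin receptor Tek and its partner Tie1 steady mature vessels, and Eng assists signalling by ligands of the transforming growth factor beta family. Many endothelial genes are controlled by transcription factors of the ETS family, which bind a short GGAA core in DNA.

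Promoter windows of 250 bases before the transcription start were available for 6 of the 10 genes in the RefSeq table of the GRCr8 assembly, as 7 windows, since Egfl7 has a pair of starts. Those of Mmrn2, Egfl7 and Flt1, which were lower in the OSU-HDAC42 sample, and of Kdr, which was higher, are printed 5′ to 3′ on the gene's strand, so that the regulatory sequence of members that differed in opposite directions can be read side by side. For Egfl7 the upstream start is shown. Capitals mark AGGAAG or CCGGAA, a pair of ETS core motifs searched on both strands.
Mmrn2 (chr16:9711955-9712204, plus strand): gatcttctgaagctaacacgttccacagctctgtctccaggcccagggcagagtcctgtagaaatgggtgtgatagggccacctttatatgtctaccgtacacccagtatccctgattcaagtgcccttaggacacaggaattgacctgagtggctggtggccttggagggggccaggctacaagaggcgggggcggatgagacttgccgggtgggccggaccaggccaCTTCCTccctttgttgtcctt
Egfl7 (chr3:29805381-29805630, plus strand): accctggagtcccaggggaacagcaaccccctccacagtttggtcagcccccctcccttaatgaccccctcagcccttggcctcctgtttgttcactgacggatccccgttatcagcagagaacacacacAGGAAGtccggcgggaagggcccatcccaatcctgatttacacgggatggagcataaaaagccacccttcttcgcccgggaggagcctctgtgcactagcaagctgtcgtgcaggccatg
Flt1 (chr12:12333180-12333429, plus strand): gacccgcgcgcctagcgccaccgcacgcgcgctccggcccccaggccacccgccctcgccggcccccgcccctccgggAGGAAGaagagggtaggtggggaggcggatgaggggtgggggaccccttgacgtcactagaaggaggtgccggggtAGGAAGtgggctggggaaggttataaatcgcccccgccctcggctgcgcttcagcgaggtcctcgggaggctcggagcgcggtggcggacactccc
Kdr (chr14:32571813-32572062, plus strand): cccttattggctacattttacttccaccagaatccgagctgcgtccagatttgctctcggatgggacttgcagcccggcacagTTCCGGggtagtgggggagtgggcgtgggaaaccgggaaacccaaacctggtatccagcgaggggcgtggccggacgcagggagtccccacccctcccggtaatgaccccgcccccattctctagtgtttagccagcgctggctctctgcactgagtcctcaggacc

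The motif AGGAAG lay 21 to 16 bases before the start of Mmrn2, read on the opposite strand as CTTCCT. In Egfl7 it lay 120 to 115 bases before the start. Flt1 held it at 172 to 167 and again at 96 to 91 bases before the start. Kdr held none, and held CCGGAA on the opposite strand instead, at 167 to 162 bases before the start. All 6 genes with a window, Tie1 and Eng included, held either AGGAAG or CCGGAA in a window. Either motif was found in 6 of the 7 windows, against 38.4% of all 33469 windows of the same length. AGGAAG alone occurred in 29.5% of all windows and CCGGAA in 12.6%. The match is a description of letters and not of binding, and the windows of these genes are also richer in G and C (57.2% in Mmrn2, 59.2% in Egfl7, 61.6% in Kdr and 73.2% in Flt1, against a median of 51.2%). The GATA core GATAA was found only in the upstream Egfl7 window among the 7 windows (23.5% of all windows), and the TATA core TATAAA in those of Mmrn2, on the opposite strand, and Flt1 (12.9% of all windows). Eng, which was higher, held AGGAAG at 2 places, so the motif was present in members of both directions.

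Egfl7 is also the host of the endothelial microRNA miR-126, whose mature arms lie within the gene's span on chromosome 3 of GRCr8. Both are shown because they come from the same locus as a member. Capitals mark the seed, bases 2 to 8, and the array values below measure the Egfl7 probes only and say nothing of the microRNA itself.
rno-miR-126a-5p (chr3:29813182-29813202, plus strand): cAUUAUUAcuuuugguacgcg
rno-miR-126a-3p (chr3:29813219-29813240, plus strand): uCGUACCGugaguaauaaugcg

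Intensities are given as deposited, on a linear scale, and each difference is the log2 value with OSU-HDAC42 less the log2 value with vehicle, so that a negative value is lower in the OSU-HDAC42 sample. Brightness depends on the probes as well as on the transcript, so the levels of different genes were not compared. A gene was represented by its brightest probe set, and genes entered counts only when the mean of both arrays reached an expression floor of 49.8, the median over 31042 non-control probe sets. Genes whose mean was above the 75th percentile, 281.8, are called bright and the others above the floor dim. Because the mean decides, a gene can pass with 1 array under the floor, and such a gene had to differ. Among the genes named here this holds for Vwf, Tspan18, Tal1, Pgf, Vegfb, Id1 and Heyl. All 9 measured members had a mean above the floor, 3 of them bright and 6 dim.

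Among the 9 members, the matrix and secreted proteins of endothelium gave the largest differences, all downward. Vwf, the glycoprotein that tethers platelets to injured vessel walls and is stored in endothelial cells and platelets, read 44.3 with OSU-HDAC42 and 85.8 with vehicle, and the same order of values is kept below. It was 1.94-fold lower (-0.95), just short of 2-fold, and its OSU-HDAC42 value lay below the expression floor. Mmrn2, multimerin 2 of the endothelial matrix, had intensities of 142.7 and 253.5 and was 1.78-fold lower (-0.83). Egfl7, a protein secreted by endothelial cells, had intensities of 80.5 and 139.1 and was 1.73-fold lower (-0.79). All 3 are dim, and the difference of each was larger than the spread between probe sets, which pools bright and dim genes.

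Egfl7 has a second probe set, of a kind whose probes can match more than 1 gene, which read 24.7 and 22.7, below the floor. It differed by 0.12, opposite in sign to the brighter one. For Vwf and Mmrn2 there is only a single probe set each, so their differences could not be checked against another one.

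The receptors for vascular endothelial growth factors differed in opposite directions. Kdr, the main signalling receptor, had intensities of 657.3 and 519.8, 1.26-fold higher (0.34). Its other probe set was under 16 on both arrays, at 9.62 and 6.80, where no difference can be measured. Flt1 had intensities of 55.3 and 80.7, 1.46-fold lower (-0.55), and its values were close to the floor. The other probe sets of Flt1 read 22.9 and 24.8, and 17.3 and 18.9, both below the floor. They differed by -0.11 and -0.12, in the same direction as the brightest probe set and by less.

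Tek and Tie1 of the angiopoietin system were both slightly lower. Tek, the receptor, had intensities of 439.0 and 516.6, 1.18-fold lower (-0.23). Tie1, its partner, had intensities of 53.8 and 64.1, 1.19-fold lower (-0.25). Each difference was within the spread between probe sets.

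Pecam1, the junction adhesion molecule of endothelium that is also carried by platelets and leukocytes, is a bright member. It had intensities of 1393 and 1119 and was 1.25-fold higher (0.32), slightly more than the spread between probe sets, as for Kdr. Eng, the co-receptor, had intensities of 68.7 and 61.7, 1.11-fold higher (0.16), within the spread between probe sets. The 3 higher members were thus all under 1.3-fold.

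**Figure D1:**
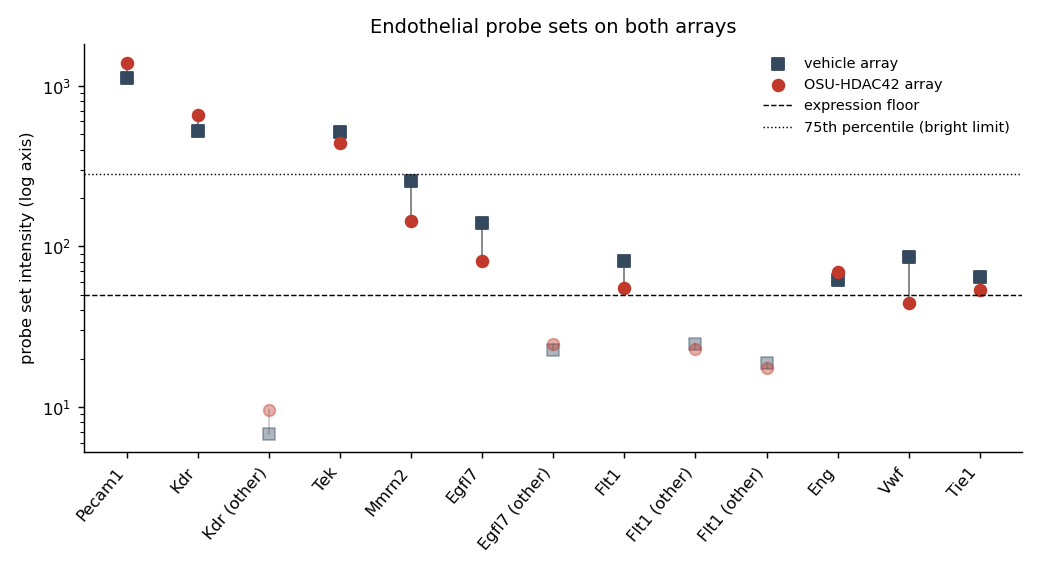
Intensity of each member's probe sets on a log axis, with squares for the vehicle array, circles for the OSU-HDAC42 array and a line joining the arrays; faint points are probe sets other than the brightest of a gene. Vwf, Mmrn2 and Egfl7 show the widest gaps, with the OSU-HDAC42 point below, and the other probe sets of Egfl7, Flt1 and Kdr all lie below the dashed floor.

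Most bright members were higher and most dim members lower. Among the 3 bright members, Pecam1 and Kdr were higher and Tek lower, with a median difference of 0.32, where 49.6% of bright genes were lower. Among the 6 dim members all but Eng were lower, with a median of -0.67. That value rests on the brightest probe sets. It was -0.30 with the mean over all probe sets of a gene, and the bright median was then 0.17. With the dimmest probe sets the dim median was -0.12 and the bright one 0.041, but there the floor was not applied. Egfl7, Flt1 and Kdr then entered as dim with probe sets below it. That of Kdr, under 16 on both arrays, was fixed at 0. The 9 together had a median of -0.25, against -0.025 over the 9302 genes above the floor.

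Read against all genes of like brightness, 3 of the 6 dim members were at least 1.5-fold lower, where 15.9% of 4049 dim genes were, and 5 of the 6 were lower by any size, where 56.5% were. The 3 were Vwf, Mmrn2 and Egfl7. The count was 2 of 5 without Vwf, whose OSU-HDAC42 value was under the floor, and 2 of 6 with the mean over all probe sets, where Egfl7 differed by only -0.33. The median difference of all dim genes was -0.087, with an SD of 0.56 between genes, and even the lowest member, Vwf, was within 2 SDs of that median. None of the 3 bright members was at least 1.5-fold lower or higher, where 5.9% of 5253 bright genes were lower and 5.35% higher. Over all 9 members, 3 were at least 1.5-fold lower (10.3% of all genes above the floor) and none was at least 1.5-fold higher (7.39%). None reached 2-fold in either direction, where 2.88% of genes were 2-fold lower and 1.74% higher. These counts describe 2 arrays and have no error between rats.

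**Figure D2:**
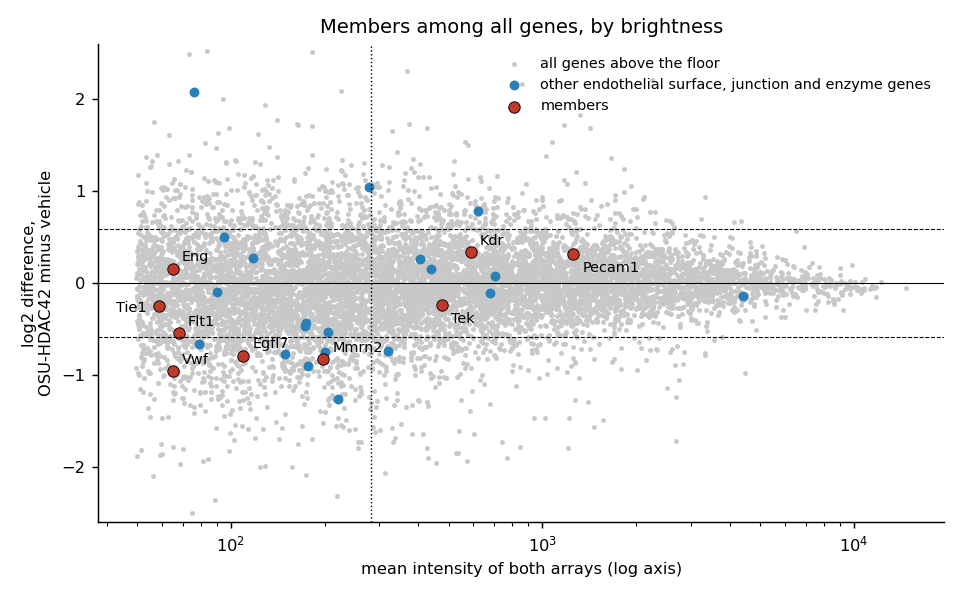
Log2 difference against the mean intensity of both arrays (log axis) for members (red, named), other endothelial surface, junction and enzyme genes (blue) and all genes above the floor (grey); dashed lines mark 1.5-fold, the dotted line the bright limit, and 6 genes lie outside the vertical axis. The dim members other than Eng lie below 0, while Kdr and Pecam1, right of the dotted line, lie above it.

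Other endothelial surface, junction and enzyme genes, a list of 26 of which 24 were measured and 20 were above the floor, were 12 lower and 8 higher, with a median of -0.12. At least 1.5-fold lower were 6 of the 20, where 10.3% of all genes above the floor were, and at least 1.5-fold higher 3, where 7.39% were. Its 7 bright genes had a median of 0.077 and its 13 dim genes a median of -0.47. With the members added, 14 of 19 dim endothelial genes were lower (median -0.53), where 56.5% of all dim genes were, and 4 of 10 bright ones (median 0.11), where 49.6% of all bright genes were. In both lists the bright genes had the higher median, as they did among all genes above the floor, by a smaller gap (0.0032 for bright and -0.087 for dim). Genes of these lists can also be read from other cells of the whole tissue. The parts of brightness and of such other cells in the endothelial differences were not tested.

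The largest differences in that list lay on both sides. Rasip1, which is needed for vessel lumens to form, had intensities of 130.2 and 311.6 and was 2.39-fold lower (-1.26). Its other probe sets lie below the floor. One differed by -0.18 and the other was under 16 on both arrays, and the mean over all was -0.48. Ramp2, the partner of the adrenomedullin receptor, had intensities of 123.8 and 231.3 and was 1.87-fold lower (-0.90). Tspan18, a tetraspanin, was 4.23-fold higher, at 123.1 against 29.1, and as the vehicle value was under the floor the size of that fold is uncertain. Aplnr, the apelin receptor, was 2.07-fold higher, at 374.8 against 181.2, although its other probe set was under 16 on both arrays and its mean of 278.0 was just under the bright limit.

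Ligands and co-receptors of the same pathways showed no common direction. Of 14 measured, 9 were above the floor, with a median of 0.010. Of these, 4 were lower and 5 higher, where 52.6% of all genes above the floor were lower. Angpt1, the activating ligand of Tek, had intensities of 50.9 and 87.5 and was 1.72-fold lower (-0.78). Nrp2, a co-receptor of lymphatic growth factors, was 1.66-fold higher (0.73), at 335.5 against 202.0, and its other probe set, below the floor, differed by -0.21. Pgf, the placental growth factor that binds Flt1, was 1.47-fold higher (0.56), and Vegfb, another Flt1 ligand, 1.43-fold lower (-0.51).

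Endothelial transcription factors were all measured (22), and 18 were above the floor, with a median of 0.053. Of the 18, 8 were lower and 10 higher, where 52.6% of all genes above the floor were lower. At least 1.5-fold lower were 10.3% of all genes above the floor, and 7.39% were at least 1.5-fold higher. Among these factors only Tal1, a basic helix-loop-helix factor of blood and endothelial development, passed 1.5-fold, at 37.7 against 65.7 (-0.80). Its OSU-HDAC42 value was under the floor, and with its other probe set at -0.18 the mean of both was -0.49, short of 1.5-fold. The ETS factor Erg had intensities of 69.1 and 93.5 (-0.44), and its other probe set, below the floor, differed by 0.0077. Sox17 of arterial endothelium was 1.36-fold higher (0.45) and Nr2f2 of venous endothelium 1.29-fold higher (0.36).

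Receptors and effectors of the transforming growth factor beta and bone morphogenetic protein branch that Eng serves had 8 genes above the floor. Of these, 3 were lower and 5 higher, with a median of 0.21, where 52.6% of all genes above the floor were lower. The target genes Id3 and Id1 were 1.58-fold and 1.42-fold higher, with intensities of 220.1 against 139.3 and 65.2 against 46.0. Smad5, a signal transducer, and Smad7, an inhibitor of the pathway, differed by 0.47 and 0.36, while the other probe sets of Smad5 above the floor differed by only 0.18 and 0.16. Of 7 endothelial Notch genes above the floor, 4 were higher, with a median of 0.028. The feedback gene Nrarp was at 0.47, Heyl at 0.35, Hes1 at -0.33 and Hey2 at -0.25. Below the floor, Notch4 (20.1 against 47.2, -1.23), Dll4 (-0.34) and Jag2 (-0.28) were lower and Dll1 (0.17) higher, so the median leaves them out. Of 7 adhesion genes of inflamed endothelium only Vcam1 and Icam1 were above the floor, at 0.68 and 0.34.

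Lymphatic markers held the largest downward difference among the vascular lists. Ccl21, the chemokine of lymphatic vessels and lymphoid tissue, had intensities of 149.3 and 453.1 and was 3.03-fold lower (-1.60). Mmrn1, also on the surface list, and Reln differed by -0.77 and -0.69, and Pdpn, which basal keratinocytes carry as well, by 0.58. Prox1 was higher too, at 201.0 against 151.6 (0.41), and Lyve1 was slightly lower, at 390.9 against 450.3 (-0.20). The other probe set of Reln, below the floor, differed by 0.14. In total 4 of 6 lymphatic markers above the floor were lower, with a median of -0.45, where 52.6% of all genes above the floor were lower. Pericyte and mural markers above the floor divided evenly, 3 lower and 3 higher of 6, with a median of 0.0041. They included Ndufa4l2 at -0.89, Anpep at -0.54, Mcam, also on the surface list, at 0.50 and Cspg4 at 0.24. Below the floor, Pdgfrb was at 0.92 (58.9 against 31.1), Kcnj8 at 0.23, Notch3 at 0 and Higd1b at -0.11.

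**Figure D3:**
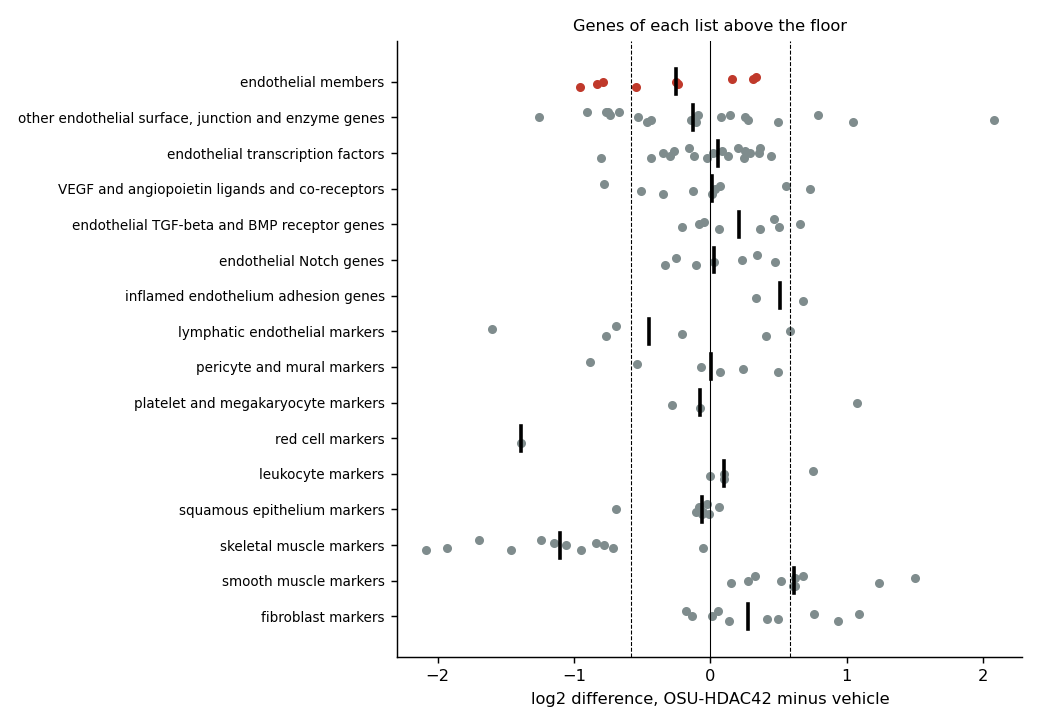
Log2 difference of each gene above the floor (points) in the members (red) and the other lists (grey), with black bars at list medians and dashed lines at 1.5-fold. Member medians lie at -0.25, skeletal muscle markers at -1.10 and smooth muscle markers at 0.61.

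Other cell types in the tissue differed between the same samples, and in whole tissue fewer cells of a type cannot be told apart from less RNA per cell. Squamous epithelium markers, which define the esophageal lining, were all bright (9 of 9 measured). These had 8 lower and 1 higher with a median of -0.059, where 49.6% of all bright genes were lower. Evpl at -0.69 was the farthest from 0, followed by Sfn at -0.10, Ppl at -0.081 and Krt5 at -0.077. Beside the lists that follow, 52.6% of all genes above the floor were lower. Skeletal muscle markers were lower in all 12 cases, with a summed intensity of 12230 against 24531 and a median of -1.10, led by Actn3 at -2.09, Ttn at -1.94, Myh2 at -1.70 and Ckm at -1.46. Smooth muscle markers were higher in all 10 cases, with a sum of 17258 against 11643 and a median of 0.61, led by Synpo2 (2.83-fold), Tagln at 1.24, Actg2 at 0.68 and Acta2 at 0.62. Fibroblast markers were higher in 8 of 10 cases, with a sum of 21545 against 17340, led by Thy1 at 1.09, Pdgfra at 0.94, Dcn at 0.76 and Col1a2 at 0.50. For Synpo2, another probe set above the floor went the other way (-0.44), and the other bright probe set of Col1a2 differed by only 0.087.

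Blood cells carry some members too. Of 10 platelet markers 7 were measured and 3 were above the floor. The sums over the 7 measured were 565.6 and 377.5, of which Itgb3 alone gave 386.6 and 183.5. Itgb3, which endothelium also carries, was 2.11-fold higher, while the platelet-restricted Itga2b and Pf4 differed by -0.28 and -0.079. Of 10 leukocyte markers 9 were measured and 4 were above the floor, with sums of 666.1 and 575.4 over the 9 measured. Cd163 was 1.69-fold higher, Ptprc and Csf1r differed by 0.10 and 0.099, and Cd68 read 219.5 on both arrays. The only red cell marker above the floor was the globin Hbb, 2.62-fold lower at 324.2 against 848.1, on a probe set of a kind whose probes can be shared by near-identical globin genes. The part that muscle, platelets, leukocytes or blood content had in the differences of the endothelial members was not tested.

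The direction of every measured member was the same with the values as deposited and under array centring, quantile normalization and removal of the intensity trend. Under these, Vwf ran from -0.96 to -0.92, Mmrn2 from -0.83 to -0.80, Egfl7 from -0.79 to -0.75 and Kdr from 0.32 to 0.36. Centring adds the same 0.021 to every difference, less than the smallest member difference (0.16 in Eng), so it could reverse no direction. The choice of probe set mattered more, because Egfl7 went from -0.79 to -0.33 with the mean of its probe sets and to 0.12 with the dimmer one, and Flt1 from -0.55 to -0.26 and -0.12. The other probe sets of Egfl7 and Flt1 lie below the floor. The dimmer probe set of Kdr was under 16 on both arrays, so raising both values to 16 fixed its difference at 0. The mean for Kdr, 0.17 against 0.34, follows from that and is no check of the brighter probe set.

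**Figure D4:**
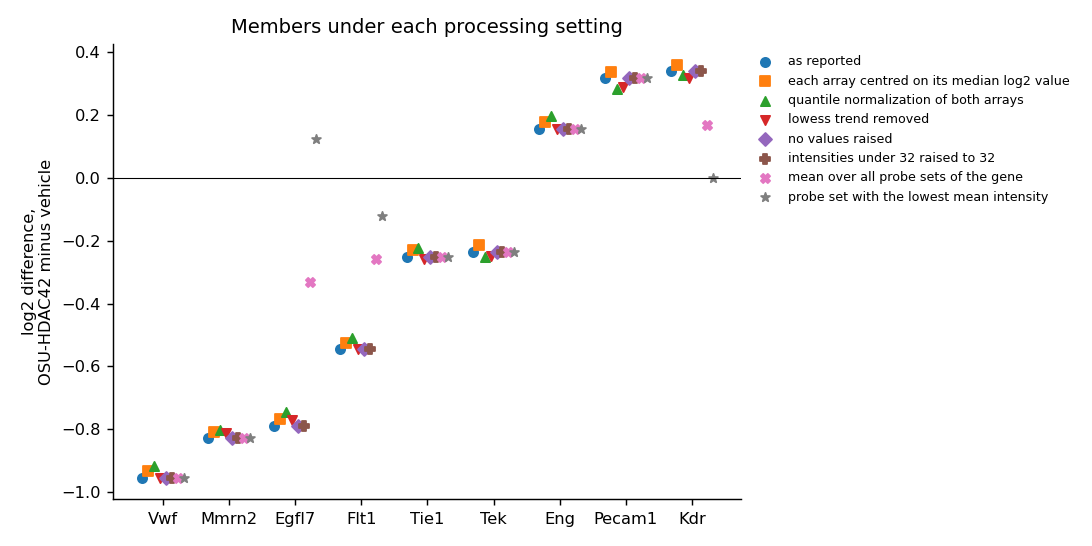
Log2 difference of each member under each processing setting (symbols). Points cluster tightly for Vwf, Mmrn2, Tie1, Tek, Eng and Pecam1, which have 1 probe set each, and spread for Egfl7, Flt1 and Kdr where another probe set is used.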

How the data were processed

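The authors deposited 1 intensity per probe set and array. The scale is linear, as judged from the range of values without controls, 4.54 to 14438 with OSU-HDAC42 and 4.48 to 14947 with vehicle. The submitters' processing notes list GCOS and RMA, without their roles, and how the arrays were scaled to each other is not given in the sources used here. For RNA extraction the labels give Trizol, the design text a column kit. The number of arrays, 2, limits the precision.

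Of 31099 probe sets, 57 controls were left out. The platform annotation gave 1 symbol for 20826 others, several for 436 and none for 9780, and only the first kind was used. Symbols were updated through gene IDs to the RefSeq table of GRCr8, which held 14204 of 14217. Intensities under 16 were raised to 16 (28.4% on the OSU-HDAC42 array, 29.2% on the vehicle array), log2 was taken and the arrays were subtracted, with no further normalization, in Python 3.11.15 with pandas 2.3.3 and, for the lowess alternative, statsmodels 0.14.6. The step was tested on simulated data, with changes only in genes of a single probe set that were brighter than the dim members. That test therefore did not cover the intensities of the dim members. The lists hold 181 memberships beside the members, 166 of them measured. Named genes are the members and up to 4 genes above the floor of each list with the largest differences. Beside these, the other lymphatic markers above the floor and the Notch and pericyte genes below it are named. Members, lists and motifs were chosen with earlier results of these data known, so the lists give no independent support. The arrays' log2 values had a Pearson correlation of 0.987 across probe sets, which are not replicates.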

Additional observations from a re-analysis of the deposited data

How the results depend on the processing

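No paired analysis was possible because there is only 1 array to a group. The differences carry no test, so a value was compared with the spread between probe sets, divided by the square root of the number of genes for a median. Changing how low values were raised left every median as it was. This was largely fixed beforehand, because the genes counted had a mean above the floor, so it is no check. Centring adds the same 0.021 to every median, a fixed shift within that spread, and is no check either. Quantile normalization and removal of the intensity trend moved no median beyond that spread, which takes the genes of a list as independent. With the mean over all probe sets of a gene, the dim members had a median of -0.30, other endothelial surface genes -0.23, transcription factors -0.071 and lymphatic markers -0.25. With each gene's dimmest probe set, which reads fewer genes above the floor, the medians were -0.12 for all members and 0.041 for 2 bright members. The other 7 members had -0.12. The floor was not applied to members on this setting, so Egfl7 (0.12), Flt1 and Kdr entered with probe sets below it. On the same setting, other surface genes had -0.47, ligands and co-receptors -0.35, transforming growth factor receptors and effectors 0.50, Notch genes -0.11, pericyte markers -0.23, skeletal muscle markers -1.25 and fibroblast markers 0.087. With bright set above the median, all 9 members were bright (-0.25) and no dim median exists. By construction, 268 genes were lower and 162 higher at 2-fold, 53 and 28 at 3-fold, and 310 and 281 at 1.5-fold with the floor at the 75th percentile, against 955 and 687. Low intensities limit Vwf, Flt1, Eng and Tie1, which lie near the floor.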
